A study of Mus musculus with 36 samples.

Results

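The cells described here are macrophages of the mouse submandibular salivary gland that carried transcripts of tissue-remodeling genes, found in 26 Drop-seq libraries and 4 CITE-seq libraries. A cell barcode with at least 100 genes and under 15% mitochondrial UMIs (unique molecular identifiers, each standing for 1 captured transcript) was a member when it held a UMI in at least 2 of the 3 genes Mmp12, Spp1 and Gpnmb and in at least 2 of the 5 myeloid genes Tyrobp, Fcer1g, Ctss, Lyz2 and Cd74. The members were thus chosen by the measured UMIs of these 8 genes, whose values are given as a description. This gate found 150 cells among 25993. All cells that met its myeloid requirement numbered 3402, so that 3252 other myeloid-gated cells served as the nearest comparison.

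Macrophages take up and digest dead cells and matrix in lysosomes, present peptides on MHC class II molecules and secrete proteases and cytokines. MMP12, macrophage elastase, is a secreted metalloproteinase that cleaves elastin. Osteopontin, the product of Spp1, is a secreted phosphoprotein that binds CD44 and several integrins, and GPNMB is a transmembrane glycoprotein of lysosomes and melanosomes. Macrophages that make these proteins are known from healing wounds, fibrotic tissue, lipid-laden lesions and tumors.

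The controls had K14-Cre with R26 EYFP, a reporter that Cre switches on. The double mutants had these alleles and in addition a gain-of-function allele of β-catenin and loss-of-function alleles of Bmpr1a, and they develop salivary gland squamous tumors. The K14 promoter, which drives Cre in both, is active in basal epithelial cells. All mice had a C57BL/6 background, and each single-cell library came from the dissociated gland of 1 mouse after sorting of live, DAPI-negative single cells, which were fixed in methanol for Drop-seq and used at once for CITE-seq. Drop-seq, which counts 3′ ends of transcripts in single cells, was done for 6 control and 7 double-mutant glands at postnatal day 40 (P40) and for 6 and 7 at P90. CITE-seq, which adds DNA-tagged antibodies, was done at about P70 for 2 control and 2 double-mutant glands. Bulk RNA was sequenced from 1 whole gland of each genotype, the control being P70 and the double mutant P100.

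The libraries held 521 to 1209 cells each after filtering. Of the barcodes, 21 occurred in more than 1 library, and none of these was a member. Transcripts of the X-inactivation and Y-linked genes went against the labelled sex in double-mutant P40 replicate 1, double-mutant P90 replicate 5 and CITE-seq control P70 replicate 1, and shares of cells are therefore given with and without the first 2. The 3′ tags do not read the recombined parts of β-catenin and Bmpr1a, so the genotype labels were not checked here.

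The promoters of the 3 remodeling genes are shown because these genes chose the cells. The RefSeq sequences on GRCm38.p6 are the 250 bases before a start site, on the plus strand, with capitals marking matches to the searched motifs. RefSeq lists 2 start windows each for Mmp12 and Spp1, of which the ones with the most matches are shown, chr9:7347124-7347373 for Mmp12, chr5:104434861-104435110 for Spp1 and chr6:49036268-49036517 for Gpnmb.
Mmp12: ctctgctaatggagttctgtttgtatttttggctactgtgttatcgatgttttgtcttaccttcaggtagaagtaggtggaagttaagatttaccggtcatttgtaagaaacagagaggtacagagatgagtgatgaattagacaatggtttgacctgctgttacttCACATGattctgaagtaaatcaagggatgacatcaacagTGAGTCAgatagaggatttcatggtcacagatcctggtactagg
Spp1: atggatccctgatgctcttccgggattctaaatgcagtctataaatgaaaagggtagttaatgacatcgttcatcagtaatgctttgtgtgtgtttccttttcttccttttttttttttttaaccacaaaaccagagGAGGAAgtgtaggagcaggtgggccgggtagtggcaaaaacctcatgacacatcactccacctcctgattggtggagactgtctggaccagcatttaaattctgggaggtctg
Gpnmb: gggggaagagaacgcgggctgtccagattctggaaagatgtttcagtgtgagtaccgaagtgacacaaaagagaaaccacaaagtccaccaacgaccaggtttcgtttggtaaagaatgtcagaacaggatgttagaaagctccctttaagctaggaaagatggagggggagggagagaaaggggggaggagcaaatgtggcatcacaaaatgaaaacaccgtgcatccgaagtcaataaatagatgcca
The motifs, searched on both strands, were TGANTCA of AP-1, the E-box CACGTG, its variant CATGTG and the PU.1 core GAGGAA. The Mmp12 window held TGAGTCA 44 bases and CACATG 83 bases before its start, and the Spp1 window held GAGGAA 113 bases before its start. The Gpnmb window held no match before its start, and TGACTCA began at base 9 after it. Of 32851 windows of 300 bases around RefSeq starts, 7.81% held the AP-1 motif, 7.15% the E-box, 14.2% the variant and 28.3% the PU.1 core, so that none of these matches was rare.

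The gate was met through Mmp12 and Spp1 in most cells. Mmp12 and Spp1 without Gpnmb were found in 88 members, all 3 genes in 43, Spp1 and Gpnmb in 14 and Mmp12 and Gpnmb in 5. Spp1 was detected in 145 members with a median of 5 and at most 437 UMIs per cell. Mmp12 was detected in 136 members with a median of 3 and at most 162 UMIs, and Gpnmb in 62 members with at most 51 UMIs. Levels were uneven, since the 10 members with the most UMIs of a gene held 46.2% of the members' Spp1, 43.6% of their Mmp12 and 50.5% of their Gpnmb UMIs. Summed over the 3 genes, a member held at least 2 and at most 628 UMIs, the median being 11, and 14 members stood at 2. Of the myeloid genes, which chose the cells as well, Ctss, a lysosomal protease, was detected in 138 members, Lyz2 in 130, Tyrobp in 112, Fcer1g in 106 and Cd74, the MHC class II chaperone, in 99.

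Just outside the threshold stood 583 myeloid-gated cells with only 1 of the 3 genes, of which 284 held Spp1, 280 Mmp12 and 19 Gpnmb. These had a median of 837 UMIs per cell, against 949 in members with 2 of the 3 genes and 1518 in members with all 3. The myeloid genes kept out 5 cells with 1 and 7 cells with none of them, so that 0.0531% of the 22591 cells outside the myeloid gate held 2 or more remodeling genes, against 4.41% of the myeloid-gated cells. The median depth was 1689 UMIs outside the gate and 721 UMIs in other myeloid-gated cells, against 1130.5 UMIs in members.

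The 3 genes differed in how far their transcripts were confined to members, as a description of the gate. Members held 88.9% of all Gpnmb UMIs, 63.0% of Mmp12 UMIs and 58.7% of Spp1 UMIs. Spp1 was the gene with a large remainder outside the myeloid gate, 31.0% of its UMIs, and 1.72% of the cells there held a Spp1 UMI, against 0.323% for Mmp12 and 0.106% for Gpnmb. By genotype, Spp1 was found in 3.02% of double-mutant and 0.418% of control cells outside the gate. Mmp12 was found there in 0.547% and 0.0977% and Gpnmb in 0.185% and 0.0267%. In control cells the total was 178 UMIs for Mmp12, 271 for Spp1 and 6 for Gpnmb, and only 10.7%, 7.75% and 16.7% of these were in members.

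**Figure D1:**
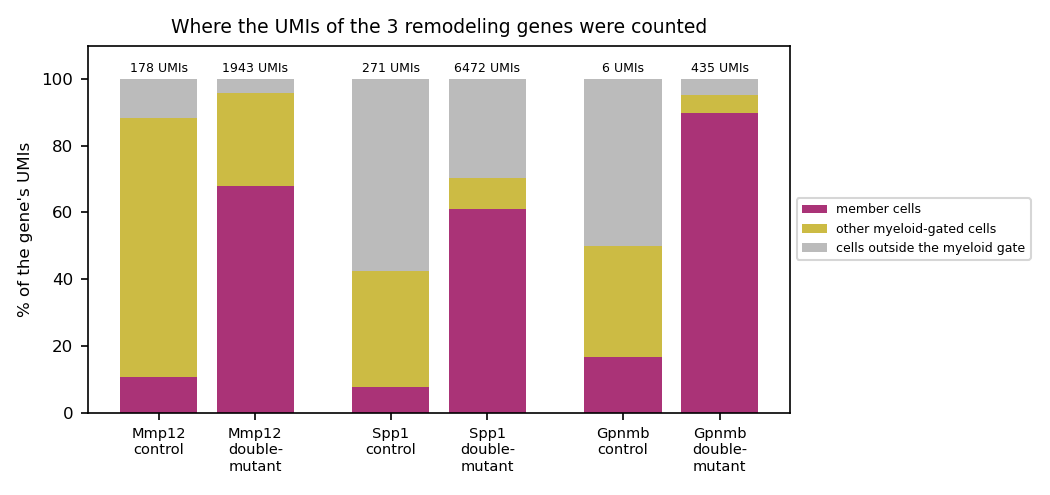
Stacked bars give the percentage of each gene's UMIs counted in member cells, other myeloid-gated cells and cells outside the gate, for control and double-mutant cells, with the total above each bar. In double-mutant cells members held 67.8% of Mmp12, 60.9% of Spp1 and 89.9% of Gpnmb UMIs, while in control cells most Mmp12 UMIs (77.5%) were in other myeloid-gated cells.

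Markers of macrophages were present in members, and most lists of other cell types were lower there than in the other myeloid-gated cells, monocyte and neutrophil markers excepted. All 9 macrophage markers were detected, with a summed level of 48.1 (lowest), 75.4 (median) and 145 (highest) UMIs per 10000 UMIs over the 10 glands with at least 5 members, against 41.0, 64.1 and 116 in other myeloid-gated cells of the same glands. At least 2 of the C1q genes, which macrophages express, were detected in 103 of 150 members (68.7%) and in 65.2% of the other myeloid-gated cells. Of 7 monocyte markers 4 were at 0 in members, Ly6c2, Plac8 and Vcan among them, but their sum was at 0, 2.64 and 7.06 UMIs per 10000 against 1.01, 2.23 and 8.59 in other myeloid-gated cells. Over all members F10 stood at 1.26 against 0.0869 and Chil3 at 1.02 against 0.0827, and 20% of members against 12.9% of the other cells held a monocyte marker, or 9.56% against 9.53% with cells thinned to 500 UMIs. The neutrophil markers summed to a median of 0.653 against 0.423. Also at 0 in members were 6 of 7 dendritic cell markers, 5 of 6 T/NK cell markers, 3 of 6 neutrophil, 3 of 6 fibroblast, 3 of 5 endothelial and 3 of 3 mast cell markers. The summed epithelial markers reached 3.14, 5.82 and 20.5 UMIs per 10000 in members against 26.6, 186 and 441 in the other cells, and the summed B and plasma cell markers 0, 0.444 and 7.03 against 0.304, 80.5 and 599. The other myeloid-gated cells thus carried far more transcripts of other cell types, and 12% of them, against 2% of members, also met a gate for mixed cells. Function was not measured, and the word remodeling refers to the gate genes alone.

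Mmp12/Spp1 macrophages were found mainly in double-mutant glands. They numbered 83 in double-mutant P90 glands (7 of 7 glands), 48 in double-mutant P40 glands (6 of 7), 9 in control P40 glands (5 of 6) and 2 in control P90 glands (2 of 6). In CITE-seq, double-mutant glands held 5 and 3 and control glands none, 0 of 718 and 0 of 740 cells, which allows shares of up to 0.418% and 0.405% by counting error alone. The share among the cells of a gland was lowest at 0%, 0.837% at the median and highest at 2.66% in the 14 double-mutant glands, and 0%, 0.0909% and 0.468% in the 12 control glands. The groups overlapped, with 9 of 14 double-mutant glands above the highest control gland. The mean share was 1.02% ± 0.803 (SD, n = 14) against 0.100% ± 0.135 (SD, n = 12), a difference of 0.919 percentage points (two-sided permutation test over glands, p = 0.00032, adjusted p = 0.00288 by Benjamini-Hochberg over 9 share comparisons). Without the 2 libraries whose sex genes went against the label the difference was 0.913 percentage points (permutation p = 0.0001). Since transcripts define the gate, more such cells and more of these transcripts per cell cannot be told apart. The gate genes were also more often detected outside the myeloid gate in double-mutant glands, as given above. How far transcripts from such cells brought myeloid-gated cells past the gate was not tested.

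At P90 the genotypes did not overlap in the share of all cells, while among myeloid-gated cells the lowest double-mutant gland lay below the highest control gland. The 7 double-mutant glands had a share of 1.24% ± 0.675 (SD) and the 6 control glands 0.0390% ± 0.0613, and all 7 stood above the highest control gland at 0.133% (exact permutation test, p = 0.00291, adjusted p = 0.00675). At P40 the shares were 0.793% ± 0.906 (n = 7) and 0.161% ± 0.165 (n = 6), with 4 of 7 double-mutant glands above every control gland (exact permutation test, p = 0.0752, adjusted p = 0.118). The genotype difference at P90 exceeded that at P40 by 0.574 percentage points, which did not pass the permutation test of the difference itself (p = 0.196, adjusted p = 0.252).

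Myeloid-gated cells were themselves more frequent in the tumor-bearing glands, 16.1% ± 7.26 of cells (SD, n = 14) against 6.43% ± 4.76 (n = 12), so the share was also taken among these cells. It was 6.18% ± 3.77 in double-mutant and 1.95% ± 2.31 in control glands, a difference of 4.23 percentage points (permutation p = 0.0030, adjusted p = 0.00675). Within myeloid-gated cells the P90 glands differed by 6.25 percentage points (6.65% ± 3.01 against 0.395% ± 0.628, n = 7 and 6, exact permutation p = 0.00175, adjusted p = 0.00675), and the P40 glands by 2.21 (5.72% ± 4.61 against 3.50% ± 2.36, exact permutation p = 0.316). Libraries were processed in numbered batches, and with glands permuted within the 5 batches that held both genotypes the difference was 0.834 percentage points of all cells (permutation p = 0.0266) and 3.65 of myeloid-gated cells (p = 0.0584). The share of all cells differed by 1.05 percentage points in batch 8, 0.985 in batch 9, 0.862 in batch 12, 1.35 in batch 13 and -0.0667 in batch 14, which held 1 double-mutant gland with no member. In batches 12 and 13 all controls were P40 while the double mutants included a P90 gland, so stage and genotype were mixed there.

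Depth differed between groups, and the median UMIs per cell of a gland averaged 1071 in double-mutant P90 and 3022.5 in control P40 glands. After each cell was thinned to 500 UMIs and shallower cells were left out, members numbered 52 of 4172 cells in double-mutant P90, 32 of 5807 in double-mutant P40, 2 of 4639 in control P90 and 3 of 5753 in control P40 glands. The difference was then 1.07 percentage points of all cells (permutation p = 0.00262). The loss of shallow cells was unequal, 2070 in double-mutant P90, 554 in double-mutant P40, 348 in control P90 and 3 in control P40 glands. Thinning thus also changed which cells were counted, and by more in double-mutant glands.

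**Figure D2:**
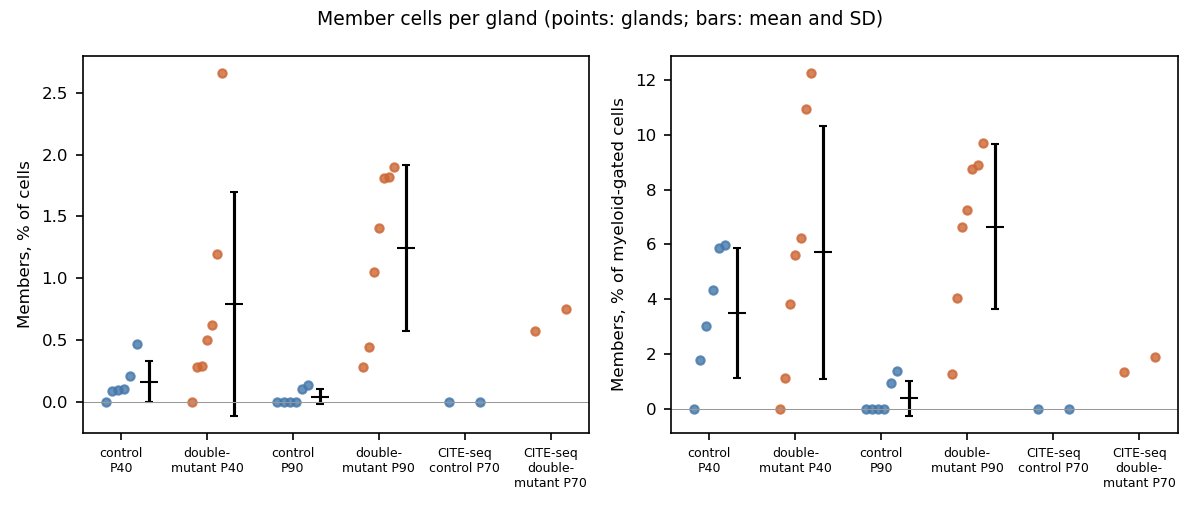
Each point is a gland, and the vertical axes give the percentage of members among all cells (left) and among myeloid-gated cells (right); black bars give the mean and SD of groups with more than 2 glands. The 7 double-mutant P90 glands lie above all 6 control P90 glands on the left, and the double-mutant P40 glands spread from 0% to 2.66%.

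Among double-mutant glands neither stage nor labelled sex passed the test with all glands. The P90 glands exceeded the P40 glands by 0.452 percentage points (exact permutation test, p = 0.306, adjusted p = 0.316), and without double-mutant P40 replicate 5, the gland with the highest share of 2.66%, by 0.764 (exact permutation p = 0.0396). The 6 glands labelled male had shares of 0.290% (lowest), 1.61% (median) and 2.66% (highest), and the 8 labelled female 0%, 0.470% and 1.82%. The difference of 0.755 percentage points did not pass the exact permutation test (p = 0.0789, adjusted p = 0.118), but was 1.15 (exact permutation p = 0.00884) without the 2 libraries whose sex genes went against the label. It also passed without double-mutant P40 replicate 1 alone (0.987, exact permutation p = 0.0249), without double-mutant P90 replicate 5 alone (0.916, p = 0.0321) and without double-mutant P40 replicate 3 (0.920, p = 0.0466), so the call depended on single libraries.

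To ask what the members shared beyond the gate, their summed UMIs were compared with those of other myeloid-gated cells of the same gland. The 10 glands with at least 5 members entered, all double-mutant, with 5 to 22 members each. Among them was double-mutant P90 replicate 4, whose ribosomal gene content the study called high. The study left this gland out when it subclustered cancer stem and basal cells. It was kept here, and 397 genes were called without it. Of 1836 genes tested, with the 8 gate genes left out, 432 (23.5%) were called, 151 (8.22%) higher and 281 (15.3%) lower in members (edgeR quasi-likelihood test, adjusted p under 0.05). The split depended on scaling: the median log2 difference of all tested genes was -0.25 with the TMM scaling used throughout, -0.07 with RLE size factors, which called 188 higher and 169 lower, and 0.41 with UMI totals, which called 366 higher and 81 lower. Members were also deeper, at the median at the 59.9th percentile of the UMIs of their gland's cells. Changes are therefore to be read against the median of -0.25, and levels below are UMIs per 10000 as lowest, median and highest over the 10 glands.

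The 12 largest rises were, in order, those of Mfge8, Atp6v0d2, Pdpn, Anpep, Fabp5, Rnf128, Lpl, Ccl6, Clec4n, Mmp19, Adam8 and Capg. Mfge8, which bridges apoptotic cells to phagocytes, stood at 0, 4.12 and 33.6 in members and at 0, 0.188 and 0.664 in other myeloid-gated cells, a log2 difference of 4.48 ± 0.49 (SE, edgeR adjusted p = 1.89e-10). It was higher in members of 8 of 10 glands, and no UMI was counted in the members of the other 2, double-mutant P40 replicates 3 and 4. Fabp5, a fatty acid-binding protein, stood at 2.04, 5.63 and 19.0 against 0, 0.398 and 1.09 and was higher in every one of the 10 glands, with no overlap (log2 3.33 ± 0.33, edgeR adjusted p = 8.23e-12). Lpl, lipoprotein lipase, stood at 5.55, 29.96 and 46.3 against 0.359, 1.35 and 4.995, again without overlap (log2 3.25 ± 0.30, edgeR adjusted p = 8.53e-13).

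Atp6v0d2, a subunit of the vacuolar proton pump, stood at 0, 3.67 and 15.7 against 0, 0.0779 and 1.33 (log2 4.38 ± 0.53, edgeR adjusted p = 2.81e-09, higher in 9 of 10 glands). Double-mutant P40 replicate 6 held 43 of the 91 Atp6v0d2 UMIs and 92 of the 211 Mfge8 UMIs of these members. Without any single gland both remained called. The aminopeptidase Anpep was higher in 10 of 10 glands (log2 3.47), and the mucin-type glycoprotein Pdpn (3.61), the ubiquitin ligase Rnf128 (3.27), the chemokine Ccl6 (3.01), the lectin receptor Clec4n (2.93) and the actin-capping Capg (2.76) were higher in 8 or 9. Pdpn rested on 35 and Anpep on 44 UMIs in the members of these 10 glands.

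**Figure D3:**
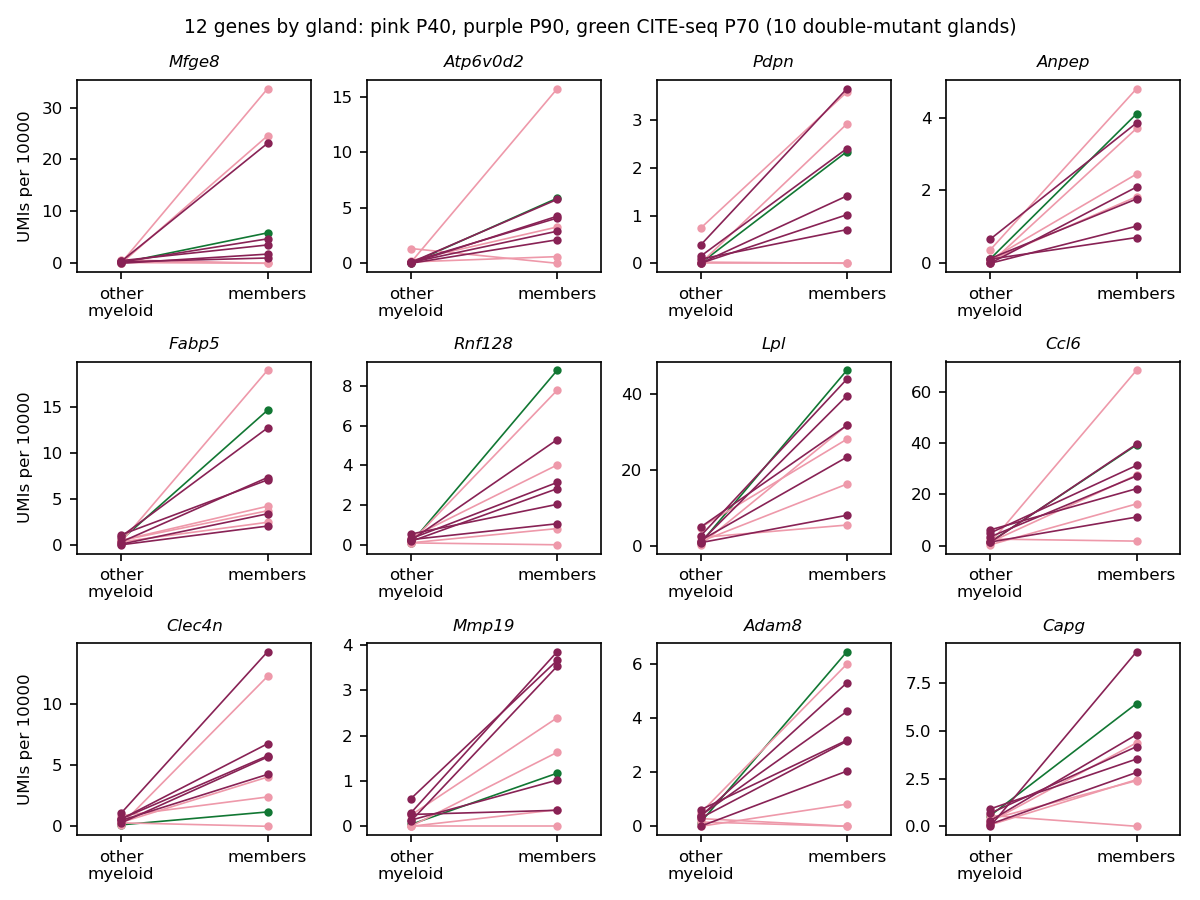
Lines join, for each of the 10 glands, the level of a gene in other myeloid-gated cells and in members, in UMIs per 10000, for the 12 genes with the largest rises. Fabp5, Lpl and Anpep rise in all 10 glands, while Mfge8 is spread from 0 to 33.6 in members.

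Of 13 tested genes of the matrix remodeling list, 7 rose (Adam8, Mmp19, Fn1, Sdc1, Timp2, Vim and Cd44), 2 fell (Plau and Timp3) and 4 did not pass, with a list median of 0.83 against -0.25 for all genes. With UMI totals 10 rose and none fell. Mmp19, a secreted metalloproteinase, stood at 0, 1.40 and 3.85 in members and 0, 0.124 and 0.609 in other cells (log2 2.88 ± 0.58, edgeR adjusted p = 0.000139). Adam8, a membrane-bound protease, had a log2 difference of 2.85 ± 0.47. Fn1, the matrix protein fibronectin, stood at 0, 8.05 and 26.5 against 0, 0.554 and 2.94 (log2 2.6 ± 0.36, edgeR adjusted p = 9.58e-08), and Timp2, a metalloproteinase inhibitor, rose by 1.41 ± 0.30. The fall of Plau, the urokinase protease, of 0.85 ± 0.26 was not called with UMI totals (adjusted p = 0.79) or RLE (adjusted p = 0.07). Other matrix metalloproteinases, Mmp2, Mmp8, Mmp9 and Mmp13, were too low to test, and Mmp14 did not pass (log2 0.79, edgeR adjusted p = 0.0588).

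Of the tested osteopontin receptors, Cd44 alone of 4 passed with TMM (log2 0.78 ± 0.29, edgeR adjusted p = 0.0429), and it did not without double-mutant P40 replicate 5 (adjusted p = 0.22). The integrin subunits Itgav, Itgb1 and Itgb5 had log2 differences of -0.02, 0.26 and -0.40, and Itgb1 passed with UMI totals (0.94, adjusted p = 0.016).

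Lysosomal genes rose in large part. Of 19 tested, 11 rose, 1 fell and 7 did not pass, with a median of 0.76. With UMI totals 15 rose and none fell. Ctsd, the aspartic protease cathepsin D, stood at 24.4, 43.7 and 80.2 in members against 1.21, 4.67 and 16.9, without overlap (log2 2.57 ± 0.26, edgeR adjusted p = 3.08e-11). Cathepsin L, Ctsl, stood at 1.85, 19.2 and 77.9 against 1.37, 2.91 and 4.95 (log2 2.50 ± 0.34), and cathepsin B, Ctsb, at 45.9, 72.9 and 99.9 against 7.60, 14.997 and 41.9 (log2 1.33 ± 0.25). The acid lipase Lipa (1.80), the cathepsin inhibitor Cstb (1.74), Cd68 (1.23), Cd63 (1.11) and Psap (1.04) rose too, while Lgmn (-0.04), Lamp2 (0.08) and Lamp1 (0.56, edgeR adjusted p = 0.0859) did not pass. Ctsz and Grn lost their call without double-mutant P40 replicate 6. Mitf, of the family of transcription factors that drive lysosomal genes, had a log2 difference of 1.48 that did not pass (edgeR adjusted p = 0.103), and Tfeb, Tfec and Tfe3 were too low to test.

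Of 12 tested genes of lipid handling, 7 rose and none fell, with a median of 1.55, and 9 rose with UMI totals. Beside Fabp5 and Lpl these were the galectin Lgals3, which stood at 7.40, 37.6 and 54.5 against 1.63, 3.76 and 11.5 (log2 2.56 ± 0.26), the tetraspanin Cd9 (2.07), the lipid receptor Trem2 (1.70), the scavenger receptor Cd36 (1.68) and the lipid droplet protein Plin2 (1.42). Trem2 stood at 1.85, 6.07 and 11.7 in members against 0.338, 1.27 and 2.78 and was higher in 10 of 10 glands. Apoe, the apolipoprotein, was abundant in both and did not pass (log2 -0.13 ± 0.28, edgeR adjusted p = 0.771), and neither did the cholesterol genes Abca1, Soat1 and Nceh1. Acp5, tartrate-resistant acid phosphatase, rose by 1.70 ± 0.30, so that Acp5 and Atp6v0d2 were the 2 of 3 tested osteoclast genes to rise, Dcstamp being at 0.31. The osteoclast list had 10 genes, of which Ctsk, Ocstamp, Itgb3, Nfatc1 and Mmp9 were too low to test. Calcr and Oscar were at 0 in members.

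Of 6 tested antioxidant and iron genes 4 rose, and all 6 with UMI totals: the peroxiredoxin Prdx1 (2.25 ± 0.28), the cystine transporter Slc7a11 (1.70 ± 0.46) and the ferritin genes Ftl1 (1.19 ± 0.26) and Fth1 (0.92 ± 0.29, not without double-mutant P40 replicate 6). Of 11 tested genes of glycolysis and hypoxia 6 rose and none fell, with a median of 0.83. Hilpda, a hypoxia-induced lipid droplet protein, was higher in 10 of 10 glands (log2 2.05 ± 0.43, edgeR adjusted p = 0.000214), whereas Vegfa (1.42), Eno1 (1.14), Aldoa (1.02), Mif (0.97) and Ldha (0.79) each lost the call without 1 of the glands.

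**Figure D4:**
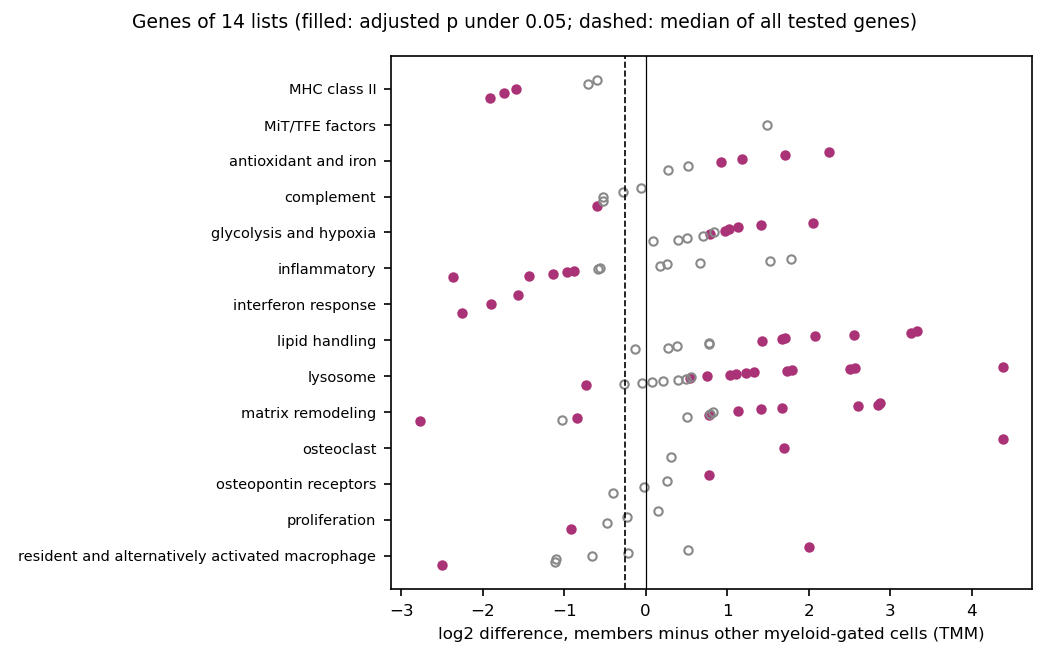
Each circle is a tested gene of a list, placed by its log2 difference between members and other myeloid-gated cells with TMM scaling; filled circles passed the edgeR test and the dashed line is the median of all 1836 genes, -0.25. No lipid-handling or glycolysis gene fell, and no MHC class II or interferon response gene rose; 4 inflammatory genes, none of them called here, were called higher with UMI totals.

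MHC class II genes were lower in members. H2-Eb1 stood at 2.62, 9.91 and 19.9 UMIs per 10000 against 11.7, 23.6 and 40.2 and was lower in 9 of 10 glands (log2 -1.91 ± 0.26, edgeR adjusted p = 8.72e-08). H2-Aa (-1.74 ± 0.29) and H2-Ab1 (-1.60 ± 0.26) were lower in 8 of 10 glands, and all 3 stayed lower with RLE size factors and UMI totals. Cd74, the chaperone of these molecules, is itself a gate gene in both groups of cells. The peptide-loading genes H2-DMa and H2-DMb1 did not pass, so that 3 of 5 tested genes fell. By detection, at least 2 of these 3 class II genes were found in 48% of members and 78.4% of the other myeloid-gated cells, although members were deeper.

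Of 12 tested inflammatory genes 5 fell and none rose with TMM, whereas with UMI totals 1 fell and 4 rose, Irg1 (2.29), Cxcl3 (2.14), Il1rn (1.34) and Cxcl1 (0.98). The chemokine Ccl4 stood at 0.586, 3.72 and 117 against 9.17, 29.3 and 67.9 (log2 -2.36 ± 0.38, edgeR adjusted p = 2.19e-06, lower in 7 of 10 glands) and was still called with UMI totals. Ccl3 (-1.43), Il1b (-1.13), Tnf (-0.96) and Nlrp3 (-0.88) were not called with UMI totals. Cxcl2, a neutrophil chemokine, was abundant in both, at 25.1, 38.5 and 194 against 18.8, 38.4 and 128 (log2 -0.55, edgeR adjusted p = 0.123). The 3 tested interferon genes Rsad2 (-2.25), Isg15 (-1.89) and Cxcl10 (-1.56) fell with TMM and none of them with UMI totals. In the proliferation list Hmgb2 fell (-0.92, not with UMI totals), while Mki67, Pcna and Tubb5 did not pass.

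Of 7 tested genes of resident and alternatively activated macrophages 1 rose and 1 fell, where 8.22% of all tested genes rose and 15.3% fell, so that these counts show nothing particular to the list. Arg1, arginase 1, rose (log2 2.01 ± 0.59, edgeR adjusted p = 0.00971), but was at 0 in members of some glands and not called without double-mutant P90 replicate 1. Retnla fell (-2.50 ± 0.67), and the other 5 tested, Mrc1, Pf4, Stab1, Sepp1 and Maf, did not pass. C1qa and C1qb did not pass, and C1qc, at -0.60 with an edgeR adjusted p of 0.0499, turned to 0.10 with UMI totals. Of 3 tested monocyte markers, F10, coagulation factor X, rose (2.71 ± 0.60, edgeR adjusted p = 0.000463), and Ccr2 and Ly6c2 fell, Ccr2 by 1.39 and not with UMI totals. Csf1r, the receptor of macrophage colony-stimulating factor, was lower with TMM (-0.84 ± 0.27, edgeR adjusted p = 0.018), but not called with RLE or UMI totals. With UMI totals the list medians of the macrophage markers, complement, inflammatory, resident and proliferation genes turned from below to above 0, at 0.18, 0.18, 0.12, 0.02 and 0.32, where the median of all genes was 0.41.

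The 12 largest falls included transcripts of other cell types. Igha, Igkc and Jchain encode parts of the IgA antibodies of plasma cells, and Prol1, Car6 and Mucl1 encode secreted proteins of gland epithelium. Scgb1b26-ps, A630073D07Rik, Mup5 and 2310057J18Rik were the others beside Ly6c2 and Il12b. The immunoglobulin, Mup, Scgb and ferritin genes have near-identical copies between which reads can be split, so their levels are uncertain. Igha stood at 0, 0.183 and 4.10 against 0.130, 47.9 and 324 UMIs per 10000, and Prol1 at 1.85, 4.18 and 19.8 against 20.3, 182 and 421. Jchain was counted at 3 UMIs in the members of these 10 glands, 228-fold lower (95% counting interval 77.9 to 1105). Ly6c2, a monocyte and plasma cell marker, was at 0 UMIs there, at least 12.2-fold lower at a floor of 3 counts over the members of the 10 glands, and Il12b, of the dendritic cell cytokine IL-12, also at 0, at least 4.08-fold lower. Over all 150 members Jchain had 5 UMIs, and Il12b had 8 UMIs in 2 cells, 0.387 UMIs per 10000 against 0.902 in all other myeloid-gated cells. These genes moved with the summed epithelial and plasma cell markers given above, whose part in the other falls was not tested.

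Set against C1q-positive macrophages, the 2119 cells outside the members with at least 2 C1q genes, the values were as follows. In these cells the summed B and plasma cell markers were 0.159, 1.81 and 34.1 and the epithelial markers 6.38, 66.1 and 298 UMIs per 10000. Of 1186 genes tested, with the C1q genes left out as well, 327 (27.6%) were called, 134 (11.3%) higher and 193 (16.3%) lower in members (edgeR). The member cells are the same as in the comparison before. With UMI totals 183 were higher and 126 lower. The leading genes were Atp6v0d2 (log2 4.81 ± 0.52, edgeR adjusted p = 7.98e-08), Mfge8 (4.54 ± 0.54), Rnf128 (4.11 ± 0.54), Anpep (3.54 ± 0.47) and Fabp5 (3.46 ± 0.33).

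Of the lists, 7 of 12 lipid-handling, 9 of 19 lysosomal, 6 of 11 matrix remodeling and 7 of 9 glycolysis and hypoxia genes rose, while 1 lysosomal gene and Plau of the matrix remodeling list fell. H2-Eb1 (-2.12 ± 0.24), H2-Aa (-1.94 ± 0.26) and H2-Ab1 (-1.75 ± 0.22) fell, H2-Aa from a median of 62.7 to 19.9 UMIs per 10000. Of 10 inflammatory genes 6 fell, Ccl4 by 2.55 and Tnf by 1.17, and of 7 resident genes Maf, Retnla, Sepp1 and Stab1 fell and Arg1 rose. Among the lower genes named by size were Il10ra, the receptor of interleukin 10, which fell by 3.20 ± 0.56, and the heat shock gene Hspa1b, by 3.12 ± 0.42. Csf1r (-1.10 ± 0.24) and the macrophage gene Ms4a7 (-0.98 ± 0.29) fell as well. At least 2 C1q genes were required of the comparison cells but not of members, of which 68.7% held 2 or more and 21.3% none. How far genes that go with C1q fell through this choice was not tested.

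The comparison with 253 myeloid-gated cells that held MHC class II but no C1q transcripts rested on 8 glands and 408 tested genes. By the edgeR test 104 genes (25.5%) were called, 71 (17.4%) higher and 33 (8.09%) lower in members, and with UMI totals 91 higher and 22 lower. The lower calls numbered 20 without CITE-seq double-mutant P70 replicate 1 and 21 without double-mutant P90 replicate 2. The largest rises were Lpl (log2 5.25 ± 0.42), Ctsd (4.54 ± 0.39), Mfge8 (4.26 ± 0.74), Cd36 (4.18 ± 0.48) and Ctsl (4.07 ± 0.60). All 7 tested lipid-handling genes rose, Apoe among them (2.08 ± 0.57, median 47.2 against 8.11 UMIs per 10000), as did 15 of 18 lysosomal genes. The comparison cells were chosen to hold no C1q transcript, whereas 68.7% of members held at least 2 C1q genes. Only 2.67% of members met the C1q and class II terms of that choice. How far these rises went with C1q was not tested, and Apoe did not pass against all other myeloid-gated cells. Cytip, a regulator of leukocyte adhesion, fell to 3 UMIs in the members of these 8 glands, 12.2-fold lower (95% counting interval 3.95 to 61.3), and the other falls named by size were Igha, Scgb2b26, Prol1 and Pip.

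Members with and without a Gpnmb UMI differed in level, which is given as a description because Gpnmb chose cells and because the 62 cells with it were deeper, at a median of 1492 against 903.5 UMIs per cell in the other 88. In summed UMIs per 10000, Gpnmb-positive members held 13.1 of Fabp5 against 1.14, 18.1 of Mfge8 against 1.14, 7.53 of Atp6v0d2 against 1.04, 47.2 of Ctsl against 10.1 and 70.1 of Ctsd against 19.9. Lpl (33.9 against 20.1) and Lgals3 (46.7 against 27.2) lay closer together. The reverse was seen for H2-Aa (9.89 against 48.3), Cd74 (20.6 against 106), Il1b (3.72 against 27.2) and Ccl4 (1.18 against 46.3). Of the 11 members from control glands 1 held Gpnmb. Among the glands with at least 5 members, the Gpnmb-positive cells made up 11 of 13 in double-mutant P40 replicate 6, 8 of 15 in double-mutant P90 replicate 1 and 2 of 9 in double-mutant P90 replicate 4. When members with 2 of the 3 genes alone were used, Lpl, Ctsd, Lgals3 and Fabp5 were still higher than in other myeloid-gated cells, while Mfge8 (adjusted p = 0.11), Rnf128 (0.18) and Trem2 (0.18) were not called by edgeR.

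Between stages no gene passed. The edgeR and DESeq2 models held labelled sex and log2 of the number of members. The label of double-mutant P90 replicate 5 went against its sex genes, and no fit without sex was run. In the 5 P90 and 4 P40 double-mutant glands with at least 5 members, 0 of 364 tested genes (0%) were called by edgeR or DESeq2. By edgeR 18 had an unadjusted p under 0.05, by DESeq2 11, and the smallest edgeR adjusted p was 0.581. Mfge8 stood at 1.77, 3.53, 1.02, 23.1 and 4.71 UMIs per 10000 in P90 replicates 1, 2, 4, 5 and 6 and at 0, 0, 24.6 and 33.6 in P40 replicates 3 to 6, groups that overlapped. Mmp12, a gate gene and so not tested, stood at 12.01, 70.7, 67.2, 169 and 101 in the same P90 glands and at 14.7, 18.5, 90.4 and 45.7 in the P40 glands. Spp1 stood at 48.4, 227, 147, 267 and 225.5 at P90 and at 55.5, 12.96, 254.5 and 292 at P40. The sums rested on 5 to 22 members per gland, and genotypes could not be compared within members because no control gland had 5.

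Surface proteins gave a readout that the gate did not use, in the 8 members of 2 CITE-seq double-mutant glands. Antibody counts are given per 10000 counts of all 61 antibodies, without a test, as levels of the summed counts of a group of cells in a gland, while members are counted above or below the median over single other myeloid-gated cells. CD11c, an integrin of macrophages and dendritic cells, stood at 1750 in members of gland 1 and 2248 in gland 2, against 309 and 372 in other myeloid-gated cells and 141 and 131 in cells outside the gate. It was above the median single cell of the other myeloid-gated cells in 8 of 8 members and above their summed level in 7. Its transcript Itgax, chosen after its values were seen, stood at 2.45, 5.12 and 10.8 UMIs per 10000 in the members of the 10 glands above, against 0.398, 0.966 and 2.79 (log2 1.84 ± 0.30, edgeR adjusted p = 2.19e-06). CD11b, the integrin of myeloid cells, stood at 785 and 1001 against 162 and 208, and the phagocytosis checkpoint receptor SIRPα at 1242 and 756 against 160 and 198, each above that median in 7 of 8 members. LAMP1, a lysosomal membrane protein that reaches the surface, stood at 503 and 383 against 112 and 118, above the median in 6 of 8. Not all antibodies to myeloid proteins were higher in members. CD169 was above the median in 2 of 8 members, CX3CR1 in 3, CSF1R and CD16/32 in 4 each, and CLEC12A and CD209a in 6 each. These antibodies had low counts, at medians of 2.5 to 11 per member.

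The MHC class II proteins I-A/I-E were lower in members, at 1281 and 1891 against 4426 and 4660, and 1 of 8 members was above the median of the other cells. That cell, in gland 2, stood apart, with I-A/I-E at 6762, no CD11b count and CD11c at 249. EpCAM, an epithelial protein, stood at 26.5 and 16.8 in members, 49.8 and 37.9 in other myeloid-gated cells and 149 and 104 outside the gate. The isotype control mIgG2a, which marks unspecific binding of that isotype, stood at 89.8 and 52.1 in members and 105 and 70.2 in other myeloid-gated cells. Over the 8 single members the control AH IgG stood at 16.8 (lowest), 29.1 (median) and 114 (highest), and CD11c at 249, 1406 and 4022. The controls AH IgG, mIgG1, mIgG2a and mIgG2b were above the median of the other myeloid-gated cells in 3, 3, 5 and 2 members. All these levels are shares of the antibody counts, so a lower I-A/I-E share by itself raises the shares of other antibodies. Its part in the higher CD11c, CD11b, SIRPα and LAMP1 levels was not tested.

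**Figure D5:**
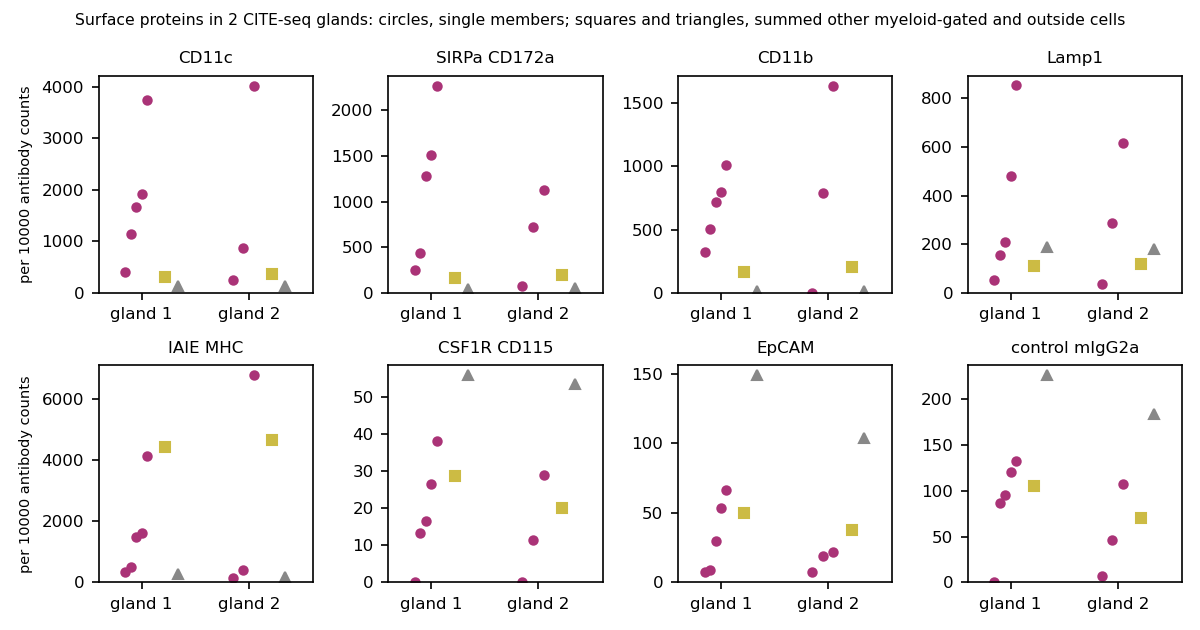
Circles give single members, squares the summed counts of other myeloid-gated cells and triangles those of cells outside the gate, in CITE-seq double-mutant glands 1 and 2, as counts per 10000 antibody counts. CD11c, CD11b and SIRPα are above the squares in 7 of 8 members each, and I-A/I-E is below in 7 of 8.

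Bulk RNA of whole glands, 1 library each of a control P70 and a double-mutant P100 gland, held more of the 3 gate genes in the latter. Mmp12 was at 0.319 CPM (counts scaled to the library total, 95% exact Poisson interval 0.159 to 0.570) and 6.42 (5.61 to 7.32), Spp1 at 1.01 (0.706 to 1.41) and 14.3 (13.02 to 15.6) and Gpnmb at 0.174 (0.0638 to 0.378) and 7.03 (6.17 to 7.96). Genes raised in members did not all follow. Fabp5 stood at 32.2 CPM in the control and 64.0 in the double-mutant gland, Fn1 at 8.78 and 23.7, Mfge8 at 8.49 and 13.01, Cd68 at 2.40 and 3.97 and Trem2 at 1.22 and 1.47, the intervals of the last overlapping. Lpl stood at 23.7 and 23.4, and Atp6v0d2 (44.6 and 16.99) and Mmp19 (2.40 and 1.497) were lower in the double-mutant gland, Mmp19 with overlapping intervals. The intervals cover counting error only. Stage and genotype cannot be told apart in these 2 libraries, and neither can more cells and more RNA per cell.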

How the data were processed

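Per the labels and the study's methods, the authors processed single-cell reads with Drop-seq tools and STAR against mm10 with GENCODE annotation, Cre and EYFP, and deposited tables of UMI counts per gene and barcode. They deposited antibody counts, made with CITE-seq-Count, for the CITE-seq cells (UMIs or reads not given in the sources used here) and bulk read counts from STAR and featureCounts. CITE-seq samples had a small spike-in of human HEK cells. The Drop-seq and CITE-seq libraries held 777537 to 7013325 UMIs over all their barcodes, before the filter.

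From the deposited counts, barcodes were filtered and gated as described, and UMIs were summed per gland and population. Sums with at least 5 cells were tested with edgeR 4.0.16 (glmQLFit, TMM, genes kept by filterByExpr), DESeq2 1.42.0 being an alternative, both with Benjamini-Hochberg adjustment. Gland was in the model of the comparisons within glands, while the model between stages held labelled sex and log2 of the number of members. Shares were compared over glands by permutation (numpy 2.4.6, with 100000 resamples, 20000 for the difference between stages, or exact). The antibody and bulk counts were not tested. Each gland was 1 mouse. Named genes were those of the gate, the 12 higher and 12 lower genes with the largest log2 differences among calls with the same sign in at least 80% of the glands (5 for the other comparisons), and members of gene lists. The members, lists and rules were chosen with earlier results of these data known. Same-numbered glands were taken as unpaired, since the labels tie the numbers to no litter, batch or day and their deviations correlated at -0.28 to 0.48 between genotypes and -0.35 to 0.52 between stages. Scripts were tested on simulated data. The edgeR fit recovered 29.7% to 72.2% of 2-fold and 93.8% to 100% of 4-fold changes over the runs. Of its calls there, 2.48% to 11.1% were false. The simulated sums had no gland effect, and as many genes were raised as lowered from the same gene shares. They thus held no composition shift of the kind that made the real calls depend on scaling, and these rates need not hold for those calls. No doublet caller was run, and cells with markers of other types were removed in an alternative. Some genes of the lists are counted but not reported by name here. Promoters came from RefSeq on GRCm38.p6. Other alternatives are given in the closing section.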

Additional observations from a re-analysis of the deposited data

Results flagged for a closer look

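Among 23 groups of gland values tested for a value far from the others, 1 stood out, where chance gives about 1 in 20. Atp6v0d2 in members of double-mutant P40 replicate 6 was at 15.7 UMIs per 10000, the next gland at 5.86 and the median of the 10 glands at 3.67. In the members of that gland 11 of 13 cells held Gpnmb.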

How the results depend on the processing

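The share among all cells stayed higher in double-mutant glands in every alternative run. C1qc, called lower against other myeloid-gated cells, turned to 0.10 with UMI totals, and Ctsz, called higher, to -0.025 with no filter. Over the alternatives, including the lowest and highest values without a gland, named and listed genes kept their call in 2106 values and lost it in 263 with the same direction. These totals cannot measure robustness by themselves. Of the kept values 186 came from double-mutant glands alone, which repeated the main fit because all glands tested were double-mutant. Drop-seq glands alone and leaving out CITE-seq cells of 2500 or more genes were the same fit, each with 167 kept and 13 lost. Genes that a setting could not test were not counted, so thinning gave only 93 kept and 17 lost. Uncalled list genes turned sign too, 19 of the 117 list genes against other myeloid-gated cells with UMI totals and 19 with no filter. Leaving out each gland gave 0.792 to 0.997 percentage points of all cells (p 7e-05 to 0.00092), 3.77 to 4.71 of myeloid-gated cells, 0.320 to 0.764 between P90 and P40 and 0.512 to 0.987 between sexes. Within batches the difference among myeloid-gated cells was 3.65 and no longer passed. Pairing glands by replicate number as a block gave 1.05 percentage points (p = 0.00146), 4.93 of myeloid-gated cells (p = 0.00439) and 0.452 between stages (p = 0.203, all exact permutation tests) and changed no other call. Without the libraries with conflicting sex labels the sex difference was 1.15, and without double-mutant P40 replicate 5 the stage difference was 0.764. A binomial mixed model with sex and stage gave odds ratios of 9.96 (p = 9.66e-08) and 4.03 (p = 0.000568). Genes called by edgeR against other myeloid-gated cells numbered 432, and 1853 with no filter (89 higher, 1764 lower), 126 with no replicate block, that is without gland in the model, 277 with at least 10 cells per sum, 136 with cells thinned to 500 UMIs and 235 with members of 2 of the 3 genes alone. Against C1q-positive macrophages they numbered 327, and 1021, 109, 104 and 127 under the same settings except the 10-cell minimum, and against class II cells 104, and 31 without gland, 23 thinned and 32 with 2 of the 3 genes alone. Fewer genes were tested without gland, with thinning and with fewer members, while the cause of the other shifts was not tested. Leaving out each gland gave 363 to 456, 273 to 339 and 78 to 114 calls, and 0 to 0 between stages. UMI totals and members of 2 of the 3 genes alone were chosen after seeing the data, as was leaving out CITE-seq cells of 2500 or more genes, which gave 363 calls. A replicate block could not be fitted to genes between stages, and the gene comparison between genotypes was not run, since no control gland had 5 members. Counts of 5 to 22 cells per gland limit what low genes can show.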
